A study of Homo sapiens with 18 samples.

Results

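The CXC chemokines described here are the 9 genes CXCL1, CXCL2, CXCL3, CXCL5, CXCL8, CXCL9, CXCL10, CXCL11 and CXCL16, found by their GENCODE symbol among the 57500 genes of the deposited count tables. Each symbol belonged to 1 gene ID. RNA-seq was done in THP-1, an established line from a human monocytic leukaemia, after lentiviral transduction with a short hairpin. The shNT line carried a non-targeting hairpin and served as the control line, the shNR4A2 line a hairpin against the nuclear receptor NR4A2, and the shNR4A3 line a hairpin against NR4A3. All cells stood 2 h in medium, and then spent a further 2 h either unstimulated (control) or with 2.5 μg/ml of lipopolysaccharide (LPS), the bacterial cell wall component sensed by TLR4. Each of the 6 groups had 3 libraries, numbered 1 to 3 in the labels and described as independent experiments, and a library held between 16171161 and 23929138 counts. Since each hairpin was represented by 1 line, the effect of a knockdown and a property of its line cannot be told apart.

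CXC chemokines are small secreted proteins that direct the movement of leukocytes through G protein-coupled receptors. CXCL1, CXCL2, CXCL3, CXCL5 and CXCL8 (interleukin 8) carry the Glu-Leu-Arg motif and attract neutrophils through CXCR2 and, for CXCL8, also CXCR1. CXCL9, CXCL10 and CXCL11 are induced by interferons and attract activated T cells and NK cells through CXCR3, while CXCL16 is made as a membrane-bound protein that binds CXCR6 and is released by ADAM10 and ADAM17.

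In the GRCh38 coordinates of the count tables, 8 of the 9 genes lay on chromosome 4 in 2 runs. CXCL8, CXCL1, CXCL5, CXCL3 and CXCL2 lay between 73740506 and 74099293, and CXCL9, CXCL10 and CXCL11 between 76001275 and 76041415. CXCL8 and CXCL1 were on the plus strand and the other 6 on the minus strand. CXCL16 lay apart, on chromosome 17 from 4733526 to 4739922 on the minus strand, and its exons overlapped those of MED11 on the plus strand. The strand setting of the read counting is not given in the sources used here, so reads of CXCL16 and MED11 may be mixed. CXCL2 and CXCL3 are close paralogs: 108 windows of 75 bases were identical between their transcripts, which was 6.87% of the windows of CXCL2 and 4.57% of those of CXCL3, and CXCL1 and CXCL2 shared 3 windows. The division of reads among CXCL1, CXCL2 and CXCL3 may be uncertain there, to an extent that was not measured. The paper gives a read length above that of the windows, so these shares are not shares of ambiguous reads.

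The promoters of 8 of the 9 genes were available from RefSeq (GRCh38.p14), and are shown because 7 of these 9 genes moved together with LPS. In the 250 bases before the start, on both strands, 4 motifs were searched: the NF-κB motif (GGNANTTCC), the AP-1 motif (TGANTCA), the interferon-stimulated response element (GAAA, any 2 bases and GAAA) and the NBRE bound by NR4A receptors (AAAGGTCA), where N is any base. None of the matches overlapped another, and capitals mark them. The full 250 bases are given for CXCL8 (chr4:73740319-73740568, plus strand) and for CXCL9 (chr4:76007510-76007759), CXCL10 (chr4:76023498-76023747) and CXCL11 (chr4:76036071-76036320), all on the minus strand, and the 100 bases next to the start, which hold the only match, for CXCL1 (chr4:73869293-73869392, plus strand), CXCL2 (chr4:74099196-74099295), CXCL3 (chr4:74038690-74038789) and CXCL5 (chr4:73998678-73998777), the last 3 on the minus strand.
CXCL8: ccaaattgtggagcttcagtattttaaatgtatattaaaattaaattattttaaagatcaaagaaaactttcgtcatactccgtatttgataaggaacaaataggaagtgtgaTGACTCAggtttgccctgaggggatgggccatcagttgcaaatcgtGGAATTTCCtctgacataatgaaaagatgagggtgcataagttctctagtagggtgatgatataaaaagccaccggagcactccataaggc
CXCL1: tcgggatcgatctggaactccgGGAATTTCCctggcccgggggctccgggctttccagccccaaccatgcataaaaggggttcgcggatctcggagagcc
CXCL2: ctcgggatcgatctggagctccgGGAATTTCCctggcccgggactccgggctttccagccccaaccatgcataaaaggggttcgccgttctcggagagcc
CXCL3: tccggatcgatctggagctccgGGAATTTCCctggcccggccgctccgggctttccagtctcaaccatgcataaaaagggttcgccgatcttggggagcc
CXCL5: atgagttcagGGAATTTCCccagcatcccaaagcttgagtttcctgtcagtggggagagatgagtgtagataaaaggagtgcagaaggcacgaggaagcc
CXCL9: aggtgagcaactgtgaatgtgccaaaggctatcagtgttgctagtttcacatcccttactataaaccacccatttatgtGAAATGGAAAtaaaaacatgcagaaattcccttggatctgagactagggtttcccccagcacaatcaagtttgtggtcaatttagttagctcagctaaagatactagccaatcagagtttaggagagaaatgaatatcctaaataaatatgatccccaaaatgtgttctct
CXCL10: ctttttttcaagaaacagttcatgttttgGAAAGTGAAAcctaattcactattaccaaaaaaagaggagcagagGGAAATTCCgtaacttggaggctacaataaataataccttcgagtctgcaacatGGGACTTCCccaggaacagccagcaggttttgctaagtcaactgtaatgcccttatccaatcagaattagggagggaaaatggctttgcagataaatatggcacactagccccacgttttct
CXCL11: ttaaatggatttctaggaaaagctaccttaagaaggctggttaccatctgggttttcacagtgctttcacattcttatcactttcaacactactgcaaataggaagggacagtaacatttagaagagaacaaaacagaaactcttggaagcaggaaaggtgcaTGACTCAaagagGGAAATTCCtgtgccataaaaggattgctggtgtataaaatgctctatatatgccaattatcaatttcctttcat

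The NF-κB motif was found in 7 of the 8 promoters, all but that of CXCL9, against 4.26% of 34788 different promoters of the same length. CXCL1, CXCL2, CXCL3, CXCL5 and CXCL8 held the same 9 letters, starting between 91 and 77 bases before the start, and CXCL10 held 2 different matches. The AP-1 motif was found in CXCL8 and CXCL11, against 6.59% of all promoters, and in both it stood upstream of the NF-κB motif. The interferon-stimulated response element was found in CXCL9 and CXCL10, against 3.02%, and the NBRE in 0 of 8, against 1.04%. These letters describe the sequences and say nothing about whether a factor bound there. The deposited genes of CXCL2, CXCL3, CXCL5, CXCL8 and CXCL11 begin upstream of the RefSeq start used here, so the window of CXCL11 lies wholly and those of the other 4 partly inside the deposited gene, and each is the window of 1 start.

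The targeted genes were examined first, in TPM, the count per base of gene length scaled to a sum of 1000000 per library. NR4A2 measured 4.16, 2.83 and 4.08 TPM in the shNT control libraries and 1.82, 1.63 and 2.41 TPM in those of shNR4A2. With LPS it measured 62.2, 74.7 and 51.3 TPM in shNT and 20.5, 28.3 and 14.8 TPM in shNR4A2. All 3 shNR4A2 libraries lay below all 3 of shNT in both conditions, and NR4A2 was lower there, with a log2 fold change of -0.91 ± 0.23 (standard error) without LPS (edgeR, adjusted p = 0.0359) and -1.52 ± 0.19 with it (edgeR, adjusted p = 0.00265). The call without LPS was lost in 4 of the 6 fits that left out 1 library (edgeR, adjusted p up to 0.124). NR4A3 measured 0.556, 0.693 and 0.512 TPM in shNT control and 0.158, 0.107 and 0.0315 TPM in shNR4A3 control, and 30.9, 32.3 and 31.9 TPM and 17.0, 18.2 and 16.7 TPM with LPS. Its libraries did not overlap between the lines either, and the log2 fold change was -2.47 ± 0.49 without LPS (edgeR, adjusted p = 0.00767) and -0.82 ± 0.08 with it (edgeR, adjusted p = 0.000556). Neither gene was silenced: after LPS the shNR4A2 line still held 21.2 ± 6.78 TPM of NR4A2 (mean ± SD, n = 3) and the shNR4A3 line 17.3 ± 0.807 TPM of NR4A3. NR4A2 in shNR4A3 with LPS had a log2 difference from shNT of -0.36 ± 0.16 (edgeR, adjusted p = 0.198), which was called only when libraries of the same number were paired (-0.37 ± 0.07, edgeR with the replicate block, adjusted p = 0.00132).

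All 8 monocytic markers (CD14, CD33, LYZ, CSF1R, SPI1, ITGAM, CD68, FCGR1A) were measured above 1 TPM in every group, and the summed markers of T cells, fibroblasts, endothelium and epithelium averaged below 1 TPM in every group. The monocytic sum was lowest in shNT and highest in shNR4A3: 1039 ± 68.6 TPM in shNT control (mean ± SD, n = 3), 1670 ± 133 TPM in shNR4A2 control and 1986 ± 245 TPM in shNR4A3 control, and 1139 ± 114, 1729 ± 152 and 2081 ± 212 TPM with LPS. SPI1, a myeloid transcription factor, was the most abundant marker except in shNR4A3 control, where lysozyme (LYZ) was. In edgeR's quasi-likelihood test, without pairing, 3 of the 8 markers were higher than in shNT in shNR4A2 control (LYZ, CD14 and CSF1R) and 5 in shNR4A3 control (these and SPI1 and ITGAM), and 0 were lower, where 3.63% and 3.91% of all genes were higher. With LPS 2 (LYZ and CSF1R) and 4 (these, SPI1 and ITGAM) were higher, where 4.31% and 3.99% of all genes were. Most of the difference between the sums came from LYZ, at 192 ± 13.6 TPM in shNT control, 615 ± 134 TPM in shNR4A2 control and 883 ± 167 TPM in shNR4A3 control. CSF1R measured 85.0 ± 14.3, 145 ± 15.1 and 166 ± 13.3 TPM in the same groups and CD14 22.6 ± 8.35, 50.2 ± 14.4 and 39.9 ± 11.7 TPM, while CD33 (38.8 ± 1.68, 41.9 ± 1.59 and 36.6 ± 2.23 TPM), FCGR1A and CD68 were called in none of these comparisons. Fits without 1 library lost the calls of CD14 in both controls, of SPI1 and ITGAM in both conditions of shNR4A3 and of CSF1R in shNR4A2 with LPS (edgeR, highest adjusted p between 0.0548 and 0.193), and kept those of LYZ. These sums are given because every comparison between lines below goes with them. Their part in those results was not tested.

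LPS raised 7 of the 9 CXC chemokines in all 3 lines, with fitted log2 fold changes between 6.54 and 9.69 for the 6 other than CXCL9, whose control counts were few. The neutrophil-attracting CXCL1, CXCL2, CXCL3 and CXCL8 and the CXCR3 ligands CXCL9, CXCL10 and CXCL11 all rose, CXCL16 stayed near 2 TPM, and CXCL5 was barely detected. In edgeR's quasi-likelihood test, 7 of the 8 members that passed the filter on low counts were called at an adjusted p under 0.05 in each line, all of them higher. Of all genes tested, LPS called 24.9% in shNT (11.6% higher), 19.3% in shNR4A2 (9.23% higher) and 28.1% in shNR4A3 (13.1% higher). With the replicate block the share in shNR4A2 was 30.1% (13.8% higher). The median log2 fold change of the 8 members was 7.83, 8.004 and 7.88 in shNT, shNR4A2 and shNR4A3, against -0.01, -0.02 and -0.01 over all genes tested. On the TPM scale LPS moved the median gene by -0.23, -0.28 and -0.24 (log2), so TPM values of LPS and control libraries are offset by that much from the edgeR fold changes. Without 1 library all 7 calls held in each line, and in shNR4A2 the log2 fold change of CXCL3 went from 9.69 to 10.5 without control replicate 1 and those of CXCL10 and CXCL11 from 8.25 to 7.65 and from 6.78 to 6.10 without LPS replicate 3. In bulk RNA, more cells expressing a gene and more RNA per cell cannot be told apart.

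**Figure D1:**
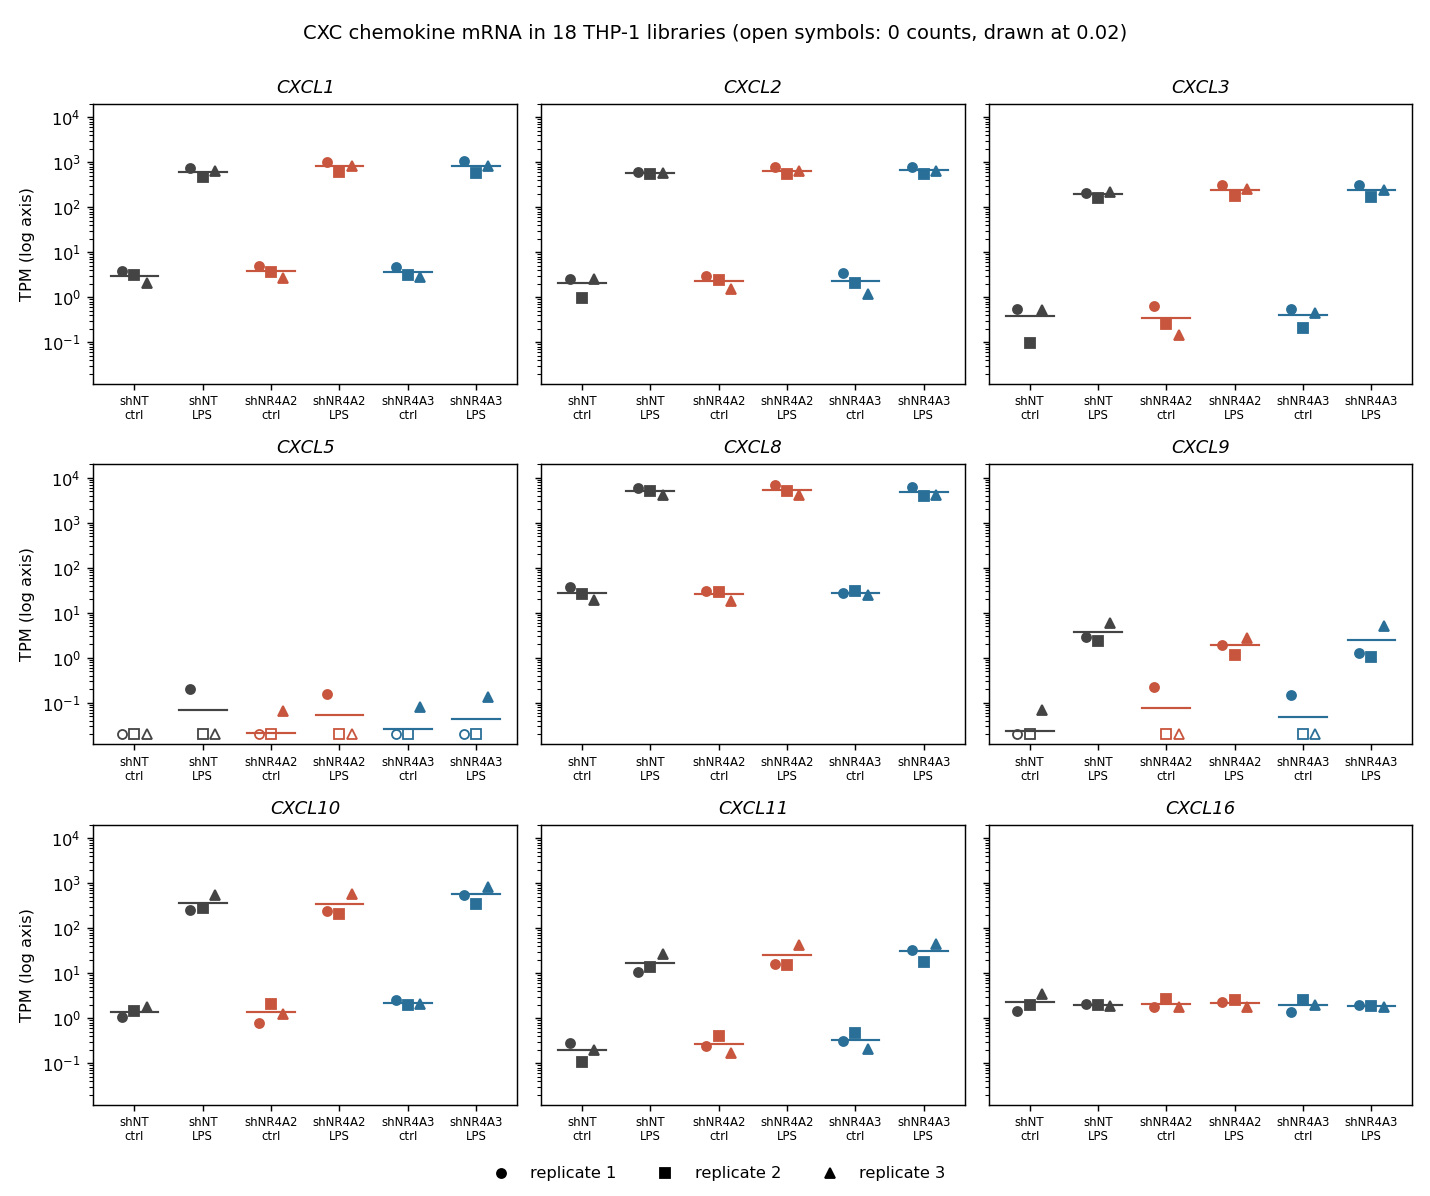
Level of the 9 CXC chemokines in TPM (log axis) in each of 18 libraries, by line and treatment (ctrl, control). Symbols mark the replicate number, horizontal bars the mean of 3 libraries, and open symbols libraries with 0 counts. In 7 panels every LPS library lies above every control library, while CXCL16 stays near 2 TPM and CXCL5 near 0.

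CXCL8, the main neutrophil attractant of human monocytes, was the most abundant member in every group. In shNT it measured 36.6, 26.1 and 19.3 TPM without LPS and 5932, 5139 and 4170.1 TPM with it. In shNR4A2 it measured 29.98, 28.4 and 18.2 and then 7006, 5021 and 4187 TPM, and in shNR4A3 27.7, 30.5 and 24.5 and then 6281, 4012 and 4115 TPM. Every LPS library lay far above every control library, and with LPS the 3 lines overlapped. The log2 fold change was 7.75 ± 0.23 in shNT, 7.999 ± 0.29 in shNR4A2 and 7.68 ± 0.24 in shNR4A3 (edgeR, adjusted p = 9.45e-12, 1.58e-09 and 2.29e-09).

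CXCL1, CXCL2 and CXCL3 (the GRO chemokines, ligands of CXCR2) started at lower levels and rose by as much or more. CXCL1 measured 3.79, 3.05 and 2.05 TPM in shNT control and 738, 478 and 641 TPM with LPS. It went from 4.99, 3.68 and 2.67 to 995, 610.0 and 823 TPM in shNR4A2. In shNR4A3 it went from 4.77, 3.14 and 2.77 to 1058, 575 and 841 TPM. Control libraries of all lines stayed below 5 TPM and LPS libraries at 478 or above, with no overlap, and the log2 fold change was 7.91 ± 0.23, 8.01 ± 0.29 and 8.08 ± 0.32 in shNT, shNR4A2 and shNR4A3 (edgeR, adjusted p = 7.99e-12, 1.36e-09 and 1.58e-08). CXCL2 measured 2.58, 0.972 and 2.54 TPM in shNT control, 2.98, 2.41 and 1.54 TPM in shNR4A2 control and 3.45, 2.11 and 1.19 TPM in shNR4A3 control. With LPS it reached 617, 553 and 578 TPM in shNT, 772, 551 and 624 TPM in shNR4A2 and 780.1, 542 and 653 TPM in shNR4A3. CXCL2 was the least variable of the induced members in shNT, where its 3 LPS libraries lay within 1.12 times of one another, and its log2 fold change was 8.35 ± 0.18, 8.40 ± 0.26 and 8.41 ± 0.28 (edgeR, adjusted p = 4.20e-13, 4.92e-10 and 4.32e-09).

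CXCL3 had the largest fold change of the family in each line. Its control libraries held few reads, 7, 1 and 6 counts in shNT, 9, 3 and 2 in shNR4A2 and 6, 2 and 5 in shNR4A3. With LPS it measured 207, 162 and 214 TPM in shNT, 306, 176 and 258 TPM in shNR4A2 and 304, 167 and 245 TPM in shNR4A3, all above every control library. The log2 fold change was 9.11 ± 0.25, 9.69 ± 0.38 and 9.40 ± 0.37 (edgeR, adjusted p = 3.76e-12, 2.47e-09 and 1.57e-08), and its size rests on those few control counts. CXCL5, which also signals through CXCR2, held 9 counts in all 18 libraries, in 5 of them and at most 3 in any, and did not pass the filter in any comparison. Whether LPS changed it was not detectable at this depth, although its promoter window carries the same NF-κB letters as those of CXCL1, CXCL2, CXCL3 and CXCL8.

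Of the CXCR3 ligands, CXCL10 was the most abundant. It measured 1.05, 1.42 and 1.78 TPM in shNT control, 0.785, 2.11 and 1.26 TPM in shNR4A2 control and 2.54, 1.92 and 2.03 TPM in shNR4A3 control. With LPS it measured 256, 281 and 555 TPM in shNT, 246, 206 and 569 TPM in shNR4A2 and 535, 354 and 847 TPM in shNR4A3. LPS and control libraries did not overlap, while the LPS libraries of a line spread over 2.17 to 2.76 times, with replicate 3 the highest in each line. The log2 fold change was 8.23 ± 0.39, 8.25 ± 0.50 and 8.28 ± 0.40 (edgeR, adjusted p = 1.72e-09, 1.49e-07 and 9.03e-08).

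CXCL11, the ligand with the highest affinity for CXCR3, was present at a far lower level than CXCL10. It measured 0.276, 0.109 and 0.199 TPM in shNT control, 0.242, 0.400 and 0.172 TPM in shNR4A2 control and 0.313, 0.474 and 0.209 TPM in shNR4A3 control. With LPS it measured 10.4, 13.6 and 26.4 TPM in shNT, 15.9, 15.6 and 43.5 TPM in shNR4A2 and 32.6, 17.5 and 44.5 TPM in shNR4A3. Every LPS library was above every control library, and the log2 fold change was 6.54 ± 0.52, 6.78 ± 0.57 and 6.78 ± 0.49 (edgeR, adjusted p = 4.66e-07, 3.52e-06 and 2.21e-06). CXCL9 was the scarcest induced member. It held 0, 0 and 1 counts in shNT control and 46, 35 and 102 counts with LPS, 4, 0 and 0 and 26, 17 and 43 counts in shNR4A2, and 2, 0 and 0 and 19, 13 and 84 counts in shNR4A3. With LPS these were 2.93, 2.30 and 5.99 TPM in shNT, 1.92, 1.15 and 2.68 TPM in shNR4A2 and 1.28, 1.06 and 5.13 TPM in shNR4A3. Per counted read CXCL9 was 170 times higher with LPS in shNT (95% interval 30.2 to 6758) and 53.9 times higher in shNR4A3 (14.6 to 450.0), intervals that cover counting error only. In edgeR it was called in each line (adjusted p = 8.63e-06, 0.000501 and 0.00169 in shNT, shNR4A2 and shNR4A3), with a fitted log2 fold change of 4.70 ± 0.71 in shNR4A2, where the 4 control counts came from 1 library. This value rested on single libraries. It was 7.996 in shNR4A2 without control replicate 1, went from 7.11 to 8.94 in shNT without control replicate 3, and in shNR4A3 went from 5.64 to 8.26 without control replicate 1 and to 4.52 without LPS replicate 3, all still called (edgeR, adjusted p = 0.000225, 0.000115, 0.00598 and 0.00260).

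CXCL16, the transmembrane chemokine, did not follow the others. It measured 1.45, 2.01 and 3.40 TPM in shNT control and 2.12, 2.00 and 1.84 TPM with LPS. The values were 1.82, 2.73 and 1.77 and 2.31, 2.52 and 1.77 TPM in shNR4A2, and 1.36, 2.59 and 1.92 and 1.98, 1.91 and 1.74 TPM in shNR4A3. Control and LPS libraries overlapped in each line. The log2 fold change was 0.03 ± 0.31 in shNT (95% interval -0.58 to 0.63), 0.33 ± 0.29 in shNR4A2 (-0.24 to 0.91) and 0.18 ± 0.29 in shNR4A3 (-0.39 to 0.76), and none was called (edgeR, adjusted p = 0.965, 0.477 and 0.692). A change of more than 1 on the log2 scale, in either direction, lies outside all 3 intervals. These intervals use a normal distribution and are narrower than the edgeR test implies, and the upper end in shNR4A2 is close to 1. With between 19 and 50 counts per library, a smaller change could not be resolved.

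**Figure D2:**
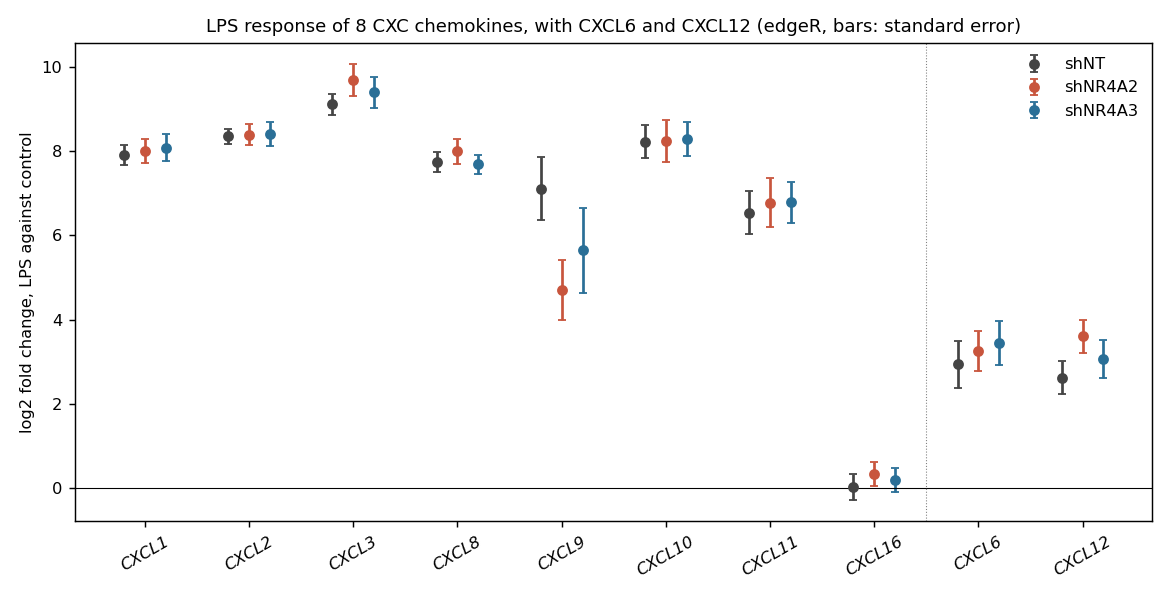
Log2 fold change with LPS (vertical axis) of the 8 CXC chemokines that were tested, and of CXCL6 and CXCL12 to the right of the dotted line, in shNT, shNR4A2 and shNR4A3. Points are edgeR estimates and bars their standard errors. In each line 7 members lie above 4 and CXCL16 lies near 0.

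For these 7 members the LPS libraries lay above the control libraries of the same line without overlap, which was so for 8.43%, 7.87% and 10.5% of all genes tested in shNT, shNR4A2 and shNR4A3. All 231 values of their LPS fold changes under the alternative settings, other tools, filters, pairing and left-out libraries included, kept their direction and their call. An exact permutation test of 3 libraries against 3 cannot go below p = 0.1, so no test of single genes is given beside the fit across all genes.

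The 9 genes together summed to 36.6 ± 8.59 TPM in shNT control (mean ± SD, n = 3) and 6863 ± 813 TPM with LPS, from 35.8 ± 8.73 to 7479 ± 1616 TPM in shNR4A2, and from 38.3 ± 4.47 to 7139 ± 1696 TPM in shNR4A3. Their share of all counts went from 0.00214% to 0.397% in shNT, from 0.00207% to 0.435% in shNR4A2 and from 0.00222% to 0.402% in shNR4A3. CXCL8 made up 73.7 ± 7.86% of the summed TPM in shNT control and 73.7 ± 5.57% with LPS, 71.2 ± 0.78% and 71.9 ± 6.55% in shNR4A2, and 72.1 ± 3.68% and 67.2 ± 5.42% in shNR4A3. The members were also put in order of mean TPM. In shNT control it ran CXCL8, CXCL1, CXCL16, CXCL2, CXCL10, CXCL3, CXCL11, CXCL9 and CXCL5, and with LPS CXCL8, CXCL1, CXCL2, CXCL10, CXCL3, CXCL11, CXCL9, CXCL16 and CXCL5. CXCL8 was separated from CXCL1 in all 6 groups. In shNT with LPS the ranges of CXCL1 and CXCL2 overlapped, as did those of CXCL2 and CXCL10, and all later neighbours were separate. In shNT control the ranges of CXCL1 and CXCL16, of CXCL16 and CXCL2, and of CXCL2 and CXCL10 overlapped, so that the place of CXCL16 in that order was not resolved. With LPS it lay below CXCL9 in shNT, and in both knockdown lines their ranges overlapped.

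The question of the study was what depletion of NR4A2 or NR4A3 does to the monocyte transcriptome. For the CXC chemokines after LPS the number of calls depended on how the libraries were fitted. With the filter on low counts and without pairing by replicate number, edgeR called 0 of the 8 tested members between either knockdown line and shNT after LPS, where 6.96% (shNR4A2) and 6.45% (shNR4A3) of all genes were called. At an unadjusted p under 0.05 these were 0 members and 1 member (CXCL11), and DESeq2 without pairing also called 0. Without the filter and still without pairing, edgeR called 4 members in each line, CXCL1, CXCL3 and CXCL11 (higher) and CXCL9 (lower) in shNR4A2 and CXCL1, CXCL3, CXCL10 and CXCL11 (all higher) in shNR4A3, where 4.57% of the 40305 genes with a count in shNR4A2 and 4.57% of 40278 in shNR4A3 were called. The p-values of the unfiltered edgeR fits followed a normal distribution, which makes no allowance for the uncertainty of a gene's spread over 3 libraries. The numbers were taken to pair the libraries, as same-numbered libraries deviated together. With the replicate number as a block, edgeR called 5 members in shNR4A2, 4 of them higher (15.2% of all genes were higher and 28.1% were called), and 5 in shNR4A3, all higher (12.3% of all genes were higher and 21.8% were called). DESeq2 with the same block called 3 members in each, at 5.69% and 4.38% of all genes. DESeq2 was run without the filter on low counts, so its shares too are of all genes with a count, a wider base than that of the edgeR shares (15590 and 15578 genes). Without both libraries of 1 number the blocked edgeR fit called 4, 5 and 2 members in shNR4A2 without number 1, 2 and 3 (22.7%, 22.2% and 17.2% of all genes) and 4, 5 and 4 in shNR4A3 (26.1%, 19.1% and 12.5%), so that the 2 of 8 in shNR4A2 without number 3 is near the share of all genes. Without replicate 2 of shNR4A3 LPS the unpaired fit called 4 members in shNR4A3 (10.6% of all genes), and without replicate 2 of shNR4A2 LPS it called 1 in shNR4A2 (CXCL3; 9.23% of all genes), near the share of all genes. The shNR4A2 and shNR4A3 comparisons share the shNT libraries, so they are not independent of each other.

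CXCL1 was called higher in both knockdown lines after LPS when libraries were paired. The unpaired edgeR fit without the filter called it too, with p-values that make no allowance for the uncertainty of a gene's spread. Taken by replicate number, the TPM of CXCL1 in shNR4A2 was 1.35, 1.28 and 1.28 times that of shNT, and in shNR4A3 1.43, 1.201 and 1.31 times. All 6 ratios were above 1, while the unpaired ranges overlapped. With the block the log2 difference was 0.44 ± 0.07 in shNR4A2 and 0.45 ± 0.07 in shNR4A3 (edgeR, adjusted p = 1.28e-06 and 0.000343). Without it the same differences were 0.45 ± 0.22 and 0.48 ± 0.24 (edgeR, adjusted p = 0.262 and 0.26; 0.00156 and 0.00011 without the filter). CXCL1 stayed called in the blocked edgeR fit without any 1 of the 3 numbers, in both lines. Over all genes tested, 21.7% were higher in shNR4A2 and 20.0% in shNR4A3 in all 3 pairs.

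The differences of CXCL3 and CXCL2 were smaller. The CXCL3 ratios were 1.47, 1.09 and 1.21 in shNR4A2 and 1.47, 1.03 and 1.15 in shNR4A3, and with the block the log2 differences were 0.37 ± 0.07 and 0.33 ± 0.09 (edgeR, adjusted p = 8.36e-05 and 0.0183; unpaired 0.306 and 0.355). Replicate 1 gave the highest CXCL3 ratio and replicate 2 the lowest in both lines. The CXCL2 ratios were 1.25, 0.996 and 1.08 and 1.26, 0.981 and 1.13, below 1 in replicate 2 of both lines, with blocked log2 differences of 0.20 ± 0.07 and 0.22 ± 0.07 (edgeR, adjusted p = 0.0332 and 0.0496; unpaired 0.428 and 0.353), which DESeq2 with the block did not call. CXCL8, the most abundant member, did not pass the test in either line: its ratios were 1.18, 0.977 and 1.00 in shNR4A2 and 1.06, 0.781 and 0.987 in shNR4A3, and the blocked log2 differences 0.13 (95% interval -0.04 to 0.29) and -0.04 (-0.20 to 0.12). Left-out numbers changed several of these blocked calls: CXCL2 was called in neither line without replicate 1 or without replicate 3, CXCL3 was not called in shNR4A3 without replicate 1, and CXCL8 was then called lower in shNR4A3.

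The CXCR3 ligands differed among themselves. CXCL10 in shNR4A3 was 2.09, 1.26 and 1.53 times that of shNT by replicate number, and 0.961, 0.733 and 1.03 times in shNR4A2. It was above shNT in all 3 pairs of shNR4A3 and in 1 pair of shNR4A2. The blocked log2 difference was 0.73 ± 0.11 in shNR4A3 (edgeR, adjusted p = 0.00032; unpaired 0.256) and -0.09 ± 0.08 in shNR4A2 (edgeR, adjusted p = 0.391; unpaired 0.972). CXCL11 was 1.53, 1.15 and 1.65 times shNT in shNR4A2 and 3.13, 1.29 and 1.69 times in shNR4A3, higher in all 6 pairs. Its blocked log2 differences were 0.59 ± 0.13 and 0.98 ± 0.18 (edgeR, adjusted p = 0.000309 and 0.00171; unpaired 0.456 and 0.17), and DESeq2 with the block did not call the second (adjusted p = 0.0903). CXCL9 went the other way, at 0.655, 0.499 and 0.448 times shNT in shNR4A2 and 0.438, 0.459 and 0.857 times in shNR4A3, below 1 in all 6 pairs. Over all genes, 33.8% in shNR4A2 and 35.7% in shNR4A3 were lower in all 3 pairs. With the block the log2 difference of CXCL9 was -0.89 ± 0.25 in shNR4A2 (edgeR, adjusted p = 0.00566; unpaired 0.253), which DESeq2 with the block did not call, and -0.62 ± 0.25 in shNR4A3 (edgeR, adjusted p = 0.0927; unpaired 0.648). CXCL9 rests on between 13 and 102 counts per library. In the blocked edgeR fit without replicate 3 neither CXCL9 nor CXCL11 was called in shNR4A2, while CXCL10 and CXCL11 stayed called in shNR4A3 without any 1 number.

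The direct comparison of the knockdown lines after LPS turned on CXCL10. By replicate number its TPM in shNR4A2 was 0.459, 0.582 and 0.672 times that of shNR4A3. The ratio was below 1 in all 3 pairs, which was so for 26.2% of all genes tested. With the block the log2 difference was -0.82 ± 0.08 (edgeR, adjusted p = 2.66e-05; unpaired -0.76 ± 0.43, adjusted p = 0.402). CXCL8 was higher in shNR4A2 by 0.17 ± 0.05 in the same fit (edgeR, adjusted p = 0.0425; unpaired 0.788), a call lost without replicate 2, and the other 6 tested members were not called. That made 2 of 8 members called where 23.6% of all genes were, 1 of 8 (CXCL10) with DESeq2 and the block where 4.73% of the 39392 genes with a count were, and 0 of 8 in edgeR without pairing where 2.33% were, with 0 members at an unadjusted p under 0.05 and 0 called by DESeq2. Without pairing and without the filter edgeR called 1 of 9, CXCL10 (adjusted p = 1.58e-08), where 2.80% of genes with a count were called. That p-value too makes no allowance for the uncertainty of a gene's spread. CXCL10 stayed called without any 1 of the 3 numbers.

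**Figure D3:**
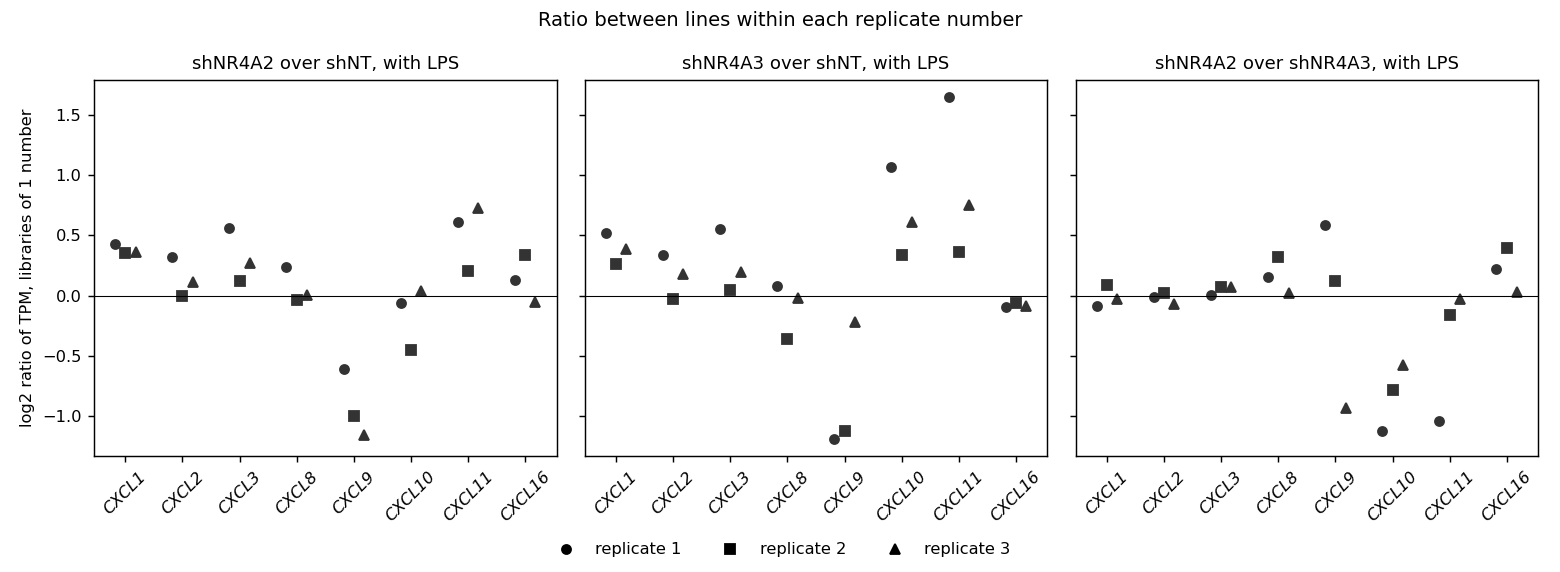
Log2 ratio of TPM between lines after LPS (vertical axis), computed within each replicate number, for the 8 CXC chemokines that were tested. The 3 symbols of a gene are the 3 replicate numbers. CXCL1 lies above 0 in both knockdown lines for every number, CXCL10 lies above 0 for every number in shNR4A3 over shNT and below it in shNR4A2 over shNR4A3.

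Without LPS no member was called between lines. In the unpaired fit 0 of the 4 tested members were called between shNR4A2 and shNT, 0 of 5 between shNR4A3 and shNT and 0 of 5 between the knockdown lines, where 6.45%, 7.23% and 3.08% of all genes were (edgeR). With the block these were again 0, at 23.6%, 14.8% and 11.6% of all genes, and 0 members had an unadjusted p under 0.05 in any of these fits. DESeq2 with and without the block also called 0. CXCL10 was a member whose ranges did not overlap, as all 3 shNR4A3 control libraries lay above all 3 of shNT (9.67% of all genes did so). Its log2 difference was 0.67 ± 0.39 (95% interval -0.09 to 1.44; edgeR, adjusted p = 0.359). CXCL1 was 1.31, 1.205 and 1.30 times shNT in shNR4A2 by replicate number, with a log2 difference of 0.35 ± 0.35 (95% interval -0.33 to 1.03; edgeR, adjusted p = 0.628). CXCL8 differed by -0.10 ± 0.25 in shNR4A2 and 0.05 ± 0.19 in shNR4A3 (edgeR, adjusted p = 0.861 and 0.918). Differences of the size seen after LPS lay within the intervals of CXCL1 and CXCL10, so these data do not separate them from no difference.

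Whether the LPS response itself differed between the lines was tested as an interaction over 12 libraries. For the CXC chemokines 0 of 8 were called in shNR4A2 against shNT and 0 of 8 in shNR4A3 against shNT, in edgeR with and without the block and in DESeq2, and 0 had an unadjusted p under 0.05 in edgeR. Over all genes edgeR called 0 without the block in both (365 and 824 genes had an unadjusted p under 0.05), DESeq2 called 2 and 8, and edgeR with the block called 8 (0.0480%) and 22 (0.134%). For CXCL8 the log2 difference of the responses, with the block, was 0.22 ± 0.16 in shNR4A2 (95% interval -0.09 to 0.53) and -0.12 ± 0.18 in shNR4A3 (-0.47 to 0.22). For CXCL1 it was 0.09 ± 0.30 (-0.49 to 0.67) and 0.12 ± 0.30 (-0.45 to 0.70). For CXCL10 it was -0.03 ± 0.55 (-1.11 to 1.05) and 0.03 ± 0.69 (-1.32 to 1.38). The intervals of CXCL1 and CXCL10 held the whole of the differences seen after LPS, and those of the low-count members were wider still, so the differences between lines after LPS were not shown to be absent before it.

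The 3 replicate numbers differed in the level, in TPM, that each CXC chemokine reached with LPS, largely in the same way in all lines. With LPS, replicate 3 was the highest for CXCL9, CXCL10 and CXCL11 in each of the 3 lines, and replicate 1 for CXCL1, CXCL2 and CXCL8. Replicate 2 was the lowest for CXCL1, CXCL2, CXCL3 and CXCL9 in each line. The highest library exceeded the lowest by 2.17 to 2.76 times for CXCL10 and by 2.53 to 2.79 times for CXCL11, against 1.42 to 1.67 times for CXCL8 and 1.12 to 1.44 times for CXCL2. Of 16935 genes, 38.5% had the same highest number in the 3 lines, but mostly number 2 (25.4%), and only 5.75% number 1 and 7.32% number 3, while 31.8% shared the lowest number (5.54% number 2). This spread is what the block removes. The labels do not say whether libraries of the same number in different groups came from the same experiment, or what differed between the numbers.

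**Figure D4:**
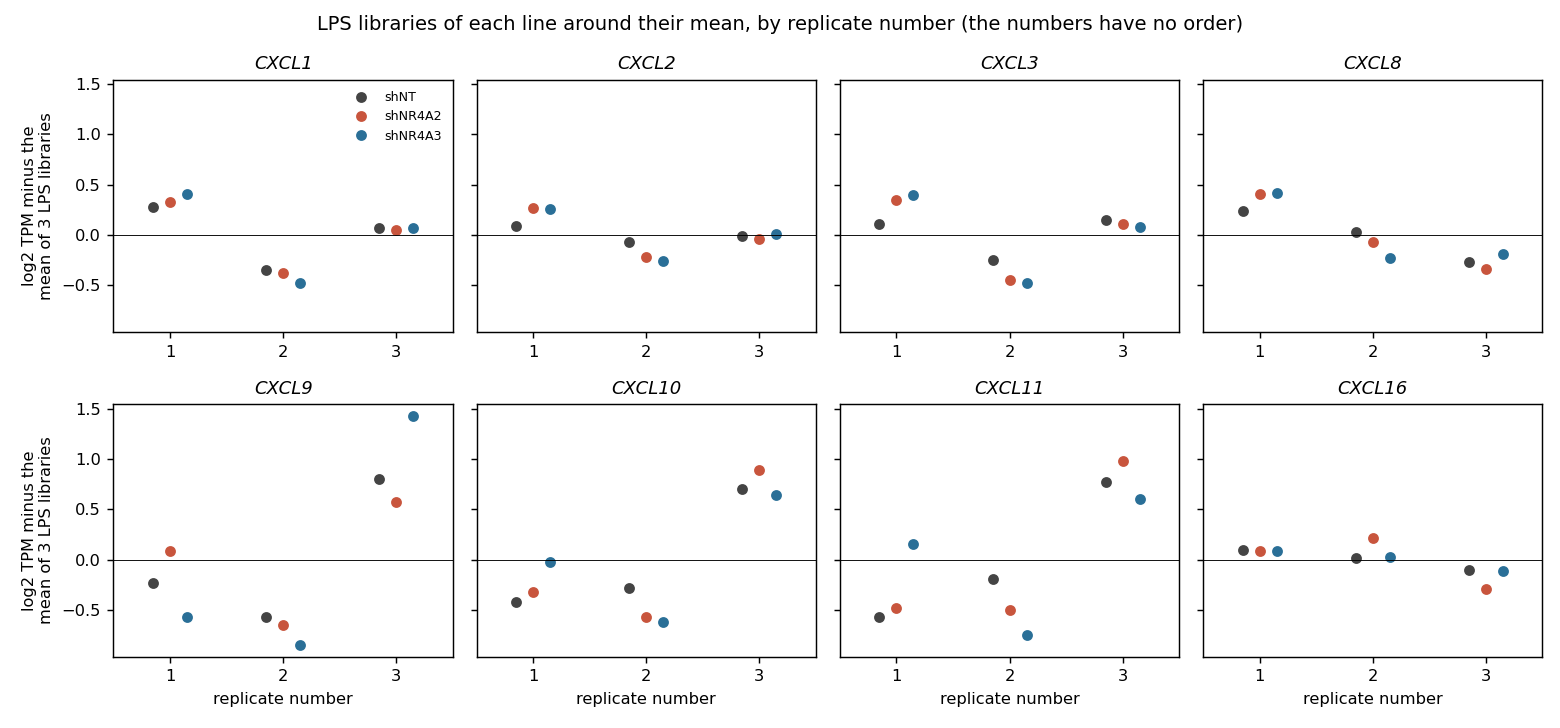
Log2 TPM of each LPS library minus the mean of the 3 LPS libraries of its line (vertical axis), by replicate number, for 8 CXC chemokines. Points are single libraries coloured by line, and the numbers have no order. CXCL9, CXCL10 and CXCL11 are highest in replicate 3 of every line, and CXCL1, CXCL2 and CXCL8 in replicate 1.

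The receptors of these chemokines were read from a fixed list of 8 genes, of which 4 passed the filter. CXCR2, the receptor of the neutrophil-attracting ligands, fell with LPS in all lines, from 17.9, 22.1 and 23.1 to 4.91, 6.86 and 5.13 TPM in shNT, with log2 fold changes of -1.68 ± 0.15, -1.53 ± 0.24 and -1.83 ± 0.23 in shNT, shNR4A2 and shNR4A3 (edgeR, adjusted p = 2.07e-06, 0.00066 and 0.000143). CXCR3, the receptor of CXCL9, CXCL10 and CXCL11, measured 24.5, 31.3 and 22.2 TPM in shNT control, 12.03, 22.7 and 14.8 TPM in shNR4A2 control and 7.47, 11.99 and 11.7 TPM in shNR4A3 control. The shNR4A3 libraries lay below all of shNT, and the log2 difference was -1.29 ± 0.20 without LPS and -1.33 ± 0.23 with it (edgeR, adjusted p = 0.00156 and 0.00986). In shNR4A2 it was -0.68 ± 0.13 and -0.67 ± 0.16 with the block (edgeR, adjusted p = 0.00197 and 0.000738; unpaired 0.124 and 0.104). CXCR3 fell with LPS in shNT, with a log2 fold change of -0.58 ± 0.16 (edgeR, adjusted p = 0.019), a call that was lost without replicate 2 of shNT control (adjusted p = 0.0976), without replicate 3 of shNT LPS (adjusted p = 0.0817) and in 1 edgeR fit of all 18 libraries (adjusted p = 0.114). With LPS it measured 14.8, 17.1 and 13.2 TPM in shNT, 6.27, 12.7 and 8.60 TPM in shNR4A2 and 3.46, 7.03 and 6.81 TPM in shNR4A3, where only the ranges of shNR4A2 overlapped those of its controls. The log2 fold change was -0.58 ± 0.27 in shNR4A2 and -0.62 ± 0.27 in shNR4A3, not called unpaired (edgeR, adjusted p = 0.164 and 0.11) and called with the block (adjusted p = 0.0134 and 0.0134). ACKR3, an atypical receptor that binds CXCL11 and CXCL12, rose with LPS by 2.16 ± 0.41, 2.56 ± 0.33 and 2.23 ± 0.22 (edgeR, adjusted p = 0.00149, 0.000122 and 2.68e-05). Without replicate 1 of shNT LPS the first was 1.41 (edgeR, adjusted p = 0.000578). CXCR1, CXCR5, CXCR6 (the CXCL16 receptor) and ACKR1 held no more than 9 counts in any library and were not tested.

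CXCR4, the receptor of CXCL12, was the receptor that moved in opposite directions. In shNT it measured 34.0, 24.4 and 23.2 TPM without and 37.7, 38.7 and 35.4 TPM with LPS. In shNR4A2 it measured 61.2, 34.3 and 38.4 and then 25.0, 27.3 and 13.9 TPM, and in shNR4A3 73.6, 48.6 and 38.9 and then 25.8, 29.7 and 19.3 TPM. All LPS libraries were above the control libraries in shNT, and below them in both knockdown lines. The log2 fold change was 0.67 ± 0.14 in shNT (edgeR, adjusted p = 0.00352; 0.0810 in 1 fit of all 18 libraries), -0.76 ± 0.25 in shNR4A2 (edgeR, adjusted p = 0.0531; with the block 0.00658) and -0.89 ± 0.23 in shNR4A3 (edgeR, adjusted p = 0.0133; 0.0597 without replicate 3 of shNR4A3 LPS). Without LPS CXCR4 was higher than in shNT by 1.03 ± 0.22 in shNR4A3 (edgeR, adjusted p = 0.0113; 0.0581 without replicate 2 of shNT control) and, with the block, by 0.70 ± 0.10 in shNR4A2 (edgeR, adjusted p = 0.000255; unpaired 0.0801). With LPS it was lower than in shNT in both knockdown lines, with log2 differences of -0.74 ± 0.11 in shNR4A2 and -0.54 ± 0.11 in shNR4A3 with the block (edgeR, adjusted p = 8.44e-07 and 0.00251; unpaired 0.0679 and 0.0535), and the blocked fits without any 1 number called both (edgeR, adjusted p at most 0.00410 and 0.0349). The responses differed from that of shNT by -1.44 ± 0.23 in shNR4A2 and -1.56 ± 0.20 in shNR4A3 with the block (edgeR, adjusted p = 0.0389 and 0.0026). These calls were lost in shNR4A2 without number 1 or 3 (edgeR, adjusted p = 0.512 and 0.443) and in shNR4A3 without number 3 (0.272). Without the block edgeR did not call them (adjusted p = 1.000 and 0.322), and DESeq2 with the block did (adjusted p = 9.31e-06 and 7.47e-09). The unpaired edgeR fit without the filter called them (adjusted p = 8.71e-08 and 2.26e-12), with p-values that make no allowance for the uncertainty of a gene's spread.

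**Figure D5:**
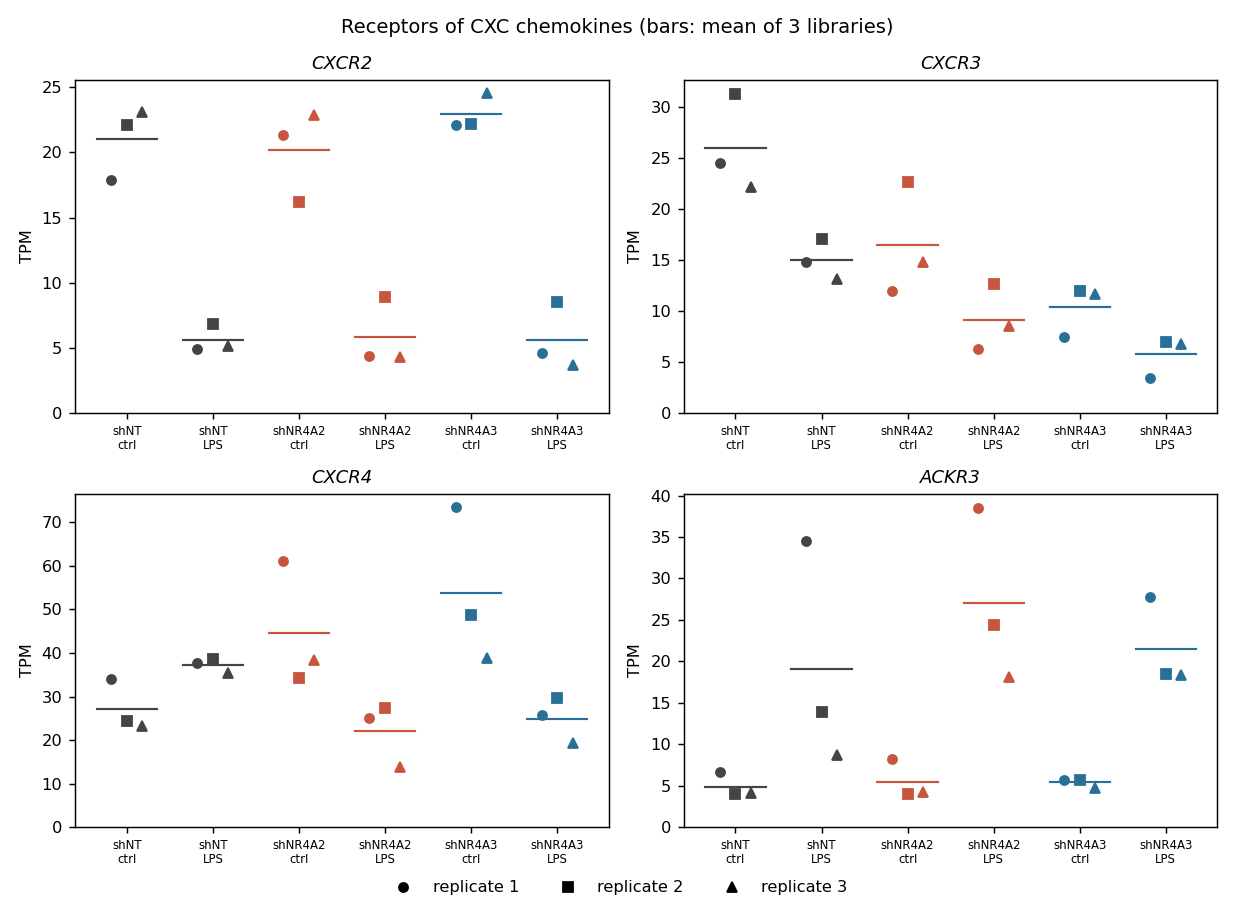
Level of the 4 tested receptors CXCR2, CXCR3, CXCR4 and ACKR3 in TPM in each library, by line and treatment (ctrl, control). Symbols mark the replicate number and horizontal bars the mean of 3 libraries. CXCR2 falls and ACKR3 rises with LPS in every line, CXCR3 is lowest in shNR4A3, and CXCR4 is higher with LPS in shNT and lower in both knockdown lines.

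Among 8 other CXC ligands, CXCL6 and CXCL12 passed the filter and both rose with LPS. CXCL6, a further CXCR2 ligand, was the only other gene tested of the 16 that the tables place in the run from CXCL8 to CXCL2. It measured 1.21, 0.286 and 0.174 TPM in shNT control and 5.19, 1.65 and 4.57 TPM with LPS, and rose by 2.93 ± 0.57, 3.25 ± 0.48 and 3.43 ± 0.52 in shNT, shNR4A2 and shNR4A3 (edgeR, adjusted p = 0.00167, 0.000427 and 0.000567). Without control replicate 1 it rose by 4.23 in shNT and by 3.95 in shNR4A2. With the block it was higher in shNR4A3 than in shNT after LPS by 1.18 ± 0.19 (edgeR, adjusted p = 0.000744; unpaired 0.188). CXCL12, the CXCR4 ligand, rose by 2.62 ± 0.39, 3.60 ± 0.40 and 3.06 ± 0.46 (edgeR, adjusted p = 0.000202, 3.85e-05 and 0.00047), and in shNR4A3 by 3.69 without control replicate 3. After LPS it measured 1.55, 1.87 and 3.71 TPM in shNT, 5.85, 3.02 and 8.41 TPM in shNR4A2 and 1.58, 1.32 and 2.92 TPM in shNR4A3. It was highest in shNR4A2, with a blocked log2 difference of 1.32 ± 0.17 from shNT and 1.57 ± 0.15 from shNR4A3 (edgeR, adjusted p = 7.24e-09 and 1.81e-05; unpaired 0.095 and 0.103). PPBP, PF4, PF4V1, CXCL13, CXCL14 and CXCL17 held no more than 12 counts in any library. CXCL13 passed the filter between the knockdown lines after LPS and was not called there.

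Of the 5 proteases in the chemokine processing list, ADAM17, which sheds CXCL16 from the membrane, rose with LPS by 0.58 ± 0.10, 0.92 ± 0.14 and 0.94 ± 0.12 (edgeR, adjusted p = 0.000666, 0.000471 and 0.000227), while CXCL16 itself and ADAM10 were not called. DPP4, which trims CXCL9, CXCL10 and CXCL11, measured 0.736, 1.21 and 1.25 TPM in shNT control, 3.16, 2.47 and 3.09 TPM in shNR4A2 control and 1.79, 2.39 and 2.94 TPM in shNR4A3 control. It was higher than in shNT by 1.46 ± 0.25 and 1.21 ± 0.28 (edgeR, adjusted p = 0.00512 and 0.0183), and after LPS by 1.65 ± 0.23 in shNR4A2 (edgeR, adjusted p = 0.00419). Without LPS ANPEP (CD13), an aminopeptidase, was higher by 0.60 ± 0.11 in shNR4A2 and 0.35 ± 0.08 in shNR4A3 (edgeR, adjusted p = 0.00684 and 0.0218). It was also called after LPS in both (edgeR, adjusted p = 0.00372 and 0.0134), the second lost in 3 of 6 fits without 1 library. MMP9, which cleaves CXCL8, was lower in shNR4A2 after LPS, with a log2 difference of -1.19 ± 0.29 (edgeR, adjusted p = 0.0426). Of 6 fits that each left out 1 library, 5 lost this call (adjusted p up to 0.121), 4 that of ANPEP and 2 that of DPP4 in shNR4A3 control (edgeR, adjusted p up to 0.0899 and 0.0898).

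Regulators of chemokine genes were read from 4 lists. Of 12 genes of the NF-κB pathway, 11, 10 and 11 rose in shNT, shNR4A2 and shNR4A3 and 0 fell (edgeR), where 11.6%, 9.23% and 13.1% of all genes rose and 13.3%, 10.1% and 15.0% fell. The same shares apply to the other 3 lists. The NF-κB list had a median log2 fold change of 3.04, 3.36 and 3.60. The largest were NFKBIZ, which encodes a co-activator of secondary response genes (7.40 ± 0.12 in shNT, edgeR, adjusted p = 5.91e-14), TNFAIP3 (A20, a feedback inhibitor; 5.85 ± 0.17, edgeR, adjusted p = 9.45e-12) and NFKB2 (4.26 ± 0.15, edgeR, adjusted p = 4.21e-11). Of 9 AP-1 and C/EBP genes 8, 7 and 7 rose, led by JUN (3.07 ± 0.16 in shNT), ATF3 (2.65 ± 0.15) and JUNB (2.60 ± 0.10). Of 10, 11 and 11 tested genes of the interferon list 5, 4 and 7 rose and 1 fell in each line, and the 1 that fell is near the share of all genes that fell. Over the 10 genes tested in all 3 lines the median log2 fold change was 0.35, 0.33 and 0.53. The eleventh was IFNB1, which encodes interferon beta. It held 0, 0 and 0 counts in shNT control and 10, 19 and 15 with LPS, 1, 0 and 0 and then 18, 13 and 20 in shNR4A2, and 0, 0 and 0 and then 16, 17 and 12 in shNR4A3. The counts with LPS were above all of those without it in each line. IFNB1 passed the filter in the knockdown lines, where it was called (edgeR, adjusted p = 0.000135 and 0.000488), and not in shNT, where it was called without the filter (edgeR, adjusted p = 8.80e-09). TICAM1 (TRIF, the TLR4 adaptor that leads to interferon) rose by 2.48 ± 0.12 in shNT, IRF7 by 0.73 ± 0.13, and IRF5 fell by 0.96 (edgeR, adjusted p = 1.68e-09, 0.000757 and 6.69e-06). Of 8 genes of mRNA turnover, whose proteins bind cytokine transcripts, 3 rose and 1 fell in each line (edgeR), the 1 that fell again near the share of all genes. ZC3H12A (Regnase-1) and ZFP36 rose and ZFP36L2 fell in all 3 lines, and the third that rose was ZFP36L1 in shNT and RC3H1 in both knockdown lines, a difference that was not itself called (0 of 8 in the tests of the LPS response between lines). In shNT the log2 fold change was 5.38 ± 0.13 for ZC3H12A, 0.97 ± 0.24 for ZFP36L1 and -1.67 ± 0.09 for ZFP36L2 (edgeR, adjusted p = 1.07e-12, 0.00788 and 5.17e-09). Fits without 1 library lost the LPS calls of RELA, FOS, IRF9 and ZFP36L1 in shNT, IRF1 and IRF7 in shNR4A2 and RELA and TBK1 in shNR4A3 in at least 1 of 6 (edgeR, highest adjusted p between 0.0505 and 0.103).

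In the comparisons with shNT after LPS, the interferon list had a median log2 difference of 0.16 in shNR4A2 and 0.41 in shNR4A3, against 0.00 and -0.01 over all genes tested, of which 4.31% and 3.99% were called higher (edgeR). In shNR4A3 the genes of that list higher than in shNT included IRF8 (0.79 ± 0.09, edgeR, adjusted p = 0.00119), IRF7 (0.72 ± 0.13, 0.0112), IRF9 (0.61 ± 0.15, 0.0454) and IRF1 (0.53 ± 0.08, 0.00517), and 0 of 11 were lower. In shNR4A2 2 of 11 were higher, IRF8 by 0.62 ± 0.10 and IRF1 by 0.37 ± 0.09 (edgeR, adjusted p = 0.00885 and 0.0438). Without LPS IRF7 and IRF8 were higher in shNR4A3 by 0.53 ± 0.13 and 0.65 ± 0.11 (edgeR, adjusted p = 0.0233 and 0.00267). Of the NF-κB list, BCL3 was higher after LPS in shNR4A2 (0.67 ± 0.15, edgeR, adjusted p = 0.0266) and shNR4A3 (0.81 ± 0.14, 0.0105), NFKBIE in shNR4A3 (0.48 ± 0.10, 0.0242), and both in shNR4A3 without LPS (0.59 ± 0.13 and 0.69 ± 0.10, edgeR, adjusted p = 0.0137 and 0.00102). Of the AP-1 and C/EBP list, FOSL1 was higher in shNR4A2 in both conditions (0.57 ± 0.12 and 0.71 ± 0.11), FOS in both knockdown lines without LPS (0.91 ± 0.12 and 0.72 ± 0.11), JUNB and CEBPD in shNR4A3 after LPS (0.41 ± 0.08 and 0.74 ± 0.17), and ATF3 was higher in shNR4A2 than in shNR4A3 without LPS (0.88 ± 0.18), all called by edgeR. ZFP36 and ZFP36L2 were higher in shNR4A3 without LPS (0.39 ± 0.10 and 0.37 ± 0.08), and ZFP36L1 was higher in shNR4A2 than in shNR4A3 (0.67 ± 0.15), again called by edgeR. With the block the counts after LPS were 4 of 12 NF-κB genes and 5 of 9 AP-1 and C/EBP genes higher in shNR4A2, and 8 and 4 higher in shNR4A3, where 15.2% and 12.3% of all genes were higher in shNR4A2 and shNR4A3 (edgeR), while CEBPB and JUND were lower in both. Many of these differences were near the threshold. Unpaired, at least 1 of 6 fits without 1 library lost the calls of IRF1 and BCL3 in shNR4A2 after LPS, of IRF7, IRF9, NFKBIE, JUNB and CEBPD in shNR4A3 after LPS, of IRF7, BCL3, ZFP36 and ZFP36L2 in shNR4A3 control, of FOSL1 in shNR4A2 control, and of ATF3 and ZFP36L1 between the knockdown lines (edgeR, highest adjusted p between 0.0560 and 0.189). The monocytic marker sums above moved in the same comparisons, and their part was not tested.

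The genes with the pattern most like that of a member were found over all 18 libraries by the root mean square difference of centred log2 library-scaled counts, among 16934 other genes. For CXCL8 these were CCL20 (0.30), CXCL1 (0.30), NFKBIZ (0.38), IL1B (0.41) and CCL3 (0.41). For CXCL10 they were IL12B (0.46), CXCL1 (0.61), KCNJ2 (0.67), CXCL2 (0.68) and CCL20 (0.70), and CXCL11 ranked 24th. CXCL16 was nearest to NAV1 (0.18), TBC1D32 (0.20), MSI2 (0.21), CELSR1 (0.22) and ZZEF1 (0.23), genes that LPS moved by 0.13 or less in shNT. The 18 libraries share lines and replicate numbers, and over the 6 group means only 3, 3 and 0 of the 5 names recurred for CXCL8, CXCL10 and CXCL16.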

How the data were processed

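The authors deposited 1 table of raw read counts per gene for each of the 18 libraries (polyA-selected, paired-end), with gene lengths. The submitters' processing notes name Trimmomatic 0.36, STAR 2.5.2b, featureCounts in Subread 1.5.2 and GRCh38. The annotation release and the strand setting are not given in the sources used here. Symbols were taken from GENCODE 29, which matched 56898 of 57500 gene IDs. Counts were tested with edgeR 4.0.16 (quasi-likelihood test, filterByExpr, TMM, Benjamini-Hochberg over all genes tested, call at adjusted p under 0.05) in R 4.3.3, on the 6 libraries of each comparison or the 12 of an interaction, without a replicate block. Alternatives were DESeq2 1.42.0, DESeq2 size factors, no filter, the replicate block, all 18 libraries in 1 fit, and leaving out libraries. Without the filter the edgeR p-values followed a normal distribution, so they make no allowance for the uncertainty of each gene's spread. DESeq2 with the block, and the block without 1 number, were added after seeing the data. The scripts were tested on simulated data. TPM were computed from counts and deposited lengths. No pair of libraries held identical counts. The lowest, median and highest total counts were 16171161, 19639071 and 23929138. The error of low values is set by their counts, and intervals cover counting error or the spread of these libraries only. No molecular identifiers are named in the sources used here.

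The replicate number was taken to pair libraries where same-numbered libraries deviated together, with every correlation of deviations from the group means over 0.1. This held for all comparisons (0.143 to 0.533) except LPS in shNT, where number 2 gave 0.0598. The pairing comes from the numbers in the labels and this check. The named genes were the 9 members, the targeted genes NR4A2 and NR4A3, and the receptors, other ligands and proteases with a count. Also named were the 3 largest changes with LPS in shNT and the calls between lines in 4 lists of regulators. The others were the tested neighbours on chromosome 4 and the 5 genes most like CXCL8, CXCL10 and CXCL16. The members and lists were chosen with earlier results of these data known. Some genes of the lists are not reported here.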

Additional observations from a re-analysis of the deposited data

Results flagged for a closer look

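CXCR4, a receptor of a CXC chemokine, responded to LPS in opposite directions: all 3 LPS libraries lay above the controls in shNT and all 3 lay below them in shNR4A2 and in shNR4A3. With the replicate block the response in shNR4A2 was lower than that in shNT by a log2 difference of -1.44 ± 0.23 (edgeR, adjusted p = 0.0389), and that in shNR4A3 by -1.56 ± 0.20 (edgeR, adjusted p = 0.0026). Leaving out the 4 libraries of 1 number in that fit gave adjusted p between 0.0004 and 0.512 for shNR4A2 and between 0.000476 and 0.272 for shNR4A3 (edgeR), and without the block edgeR gave 1.000 and 0.322 (8.71e-08 and 2.26e-12 without the filter on low counts). No CXC chemokine met such a criterion. The adjusted p without the filter makes no allowance for the uncertainty of a gene's spread.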

How the results depend on the processing

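The LPS fold changes of the 7 induced CXC chemokines kept direction and call in all 231 values (edgeR and DESeq2), and edgeR called all 7 without any 1 library. Of 39 log2 fold changes called as reported, 0 changed sign under any alternative, and of 104 not called, 58 did under at least 1. What depended on the processing was the comparison of lines. The number of CXC chemokines called after LPS, 0 unpaired, was 5 in shNR4A2 and 5 in shNR4A3 against shNT and 2 between the knockdown lines with the replicate block, 3, 3 and 1 with DESeq2 and the block, 4, 4 and 1 without the filter on low counts, and 2 to 5, 4 to 5 and 1 to 3 with the block when 1 number was left out. Leaving out 1 library unpaired gave 0 to 1 and 0 to 4 members.

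The number of genes called moved likewise. For LPS in shNR4A2 (3050) it was 4751 with the replicate block and 4601 in the fit of all 18 libraries. For LPS in shNT, where number 2 did not reach the pairing limit of 0.1, it was 5029 with the block against 3909. Between lines without LPS, for shNR4A2 against shNT (1019), shNR4A3 against shNT (1108) and shNR4A2 against shNR4A3 (480), the block gave 3733, 2267 and 1800. DESeq2 with the block gave 2238 and 1046, and no filter 1611 and 838, for the first and last of these, and leaving out 1 library gave 517 to 1128, 649 to 975 and 249 to 470. After LPS, for the same 3 comparisons (1085, 1005 and 362), the block gave 4385, 3401 and 3666, DESeq2 with the block 2295, 1765 and 1864, no filter 1843, 1839 and 1102. For these, the block without number 1, 2 or 3 gave 3567, 3494 and 2705, 4106, 2994 and 1965, and 3120, 1749 and 2980, and leaving out 1 library 342 to 1477, 383 to 1693 and 94 to 217. All 18 libraries in 1 fit gave 1691 for shNR4A2 against shNT and 1032 between the knockdown lines, where DESeq2 gave 698. For the interactions of shNR4A2 and shNR4A3 with LPS (0 and 0) the counts were 2 and 8 with DESeq2, 29 and 138 without the filter, 8 and 22 with the block, 27 and 51 with DESeq2 and the block, 0 to 53 and 0 to 248 with the block without 1 number, and 0 to 8 and 0 to 44 without 1 library. The cause of these shifts was not tested. The call of CXCR4 in shNR4A3 against shNT without LPS was lost without replicate 2 of shNT control (edgeR, adjusted p = 0.0581), and that of CXCR4 with LPS in shNT in the fit of all 18 libraries (edgeR, adjusted p = 0.0810).

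Depth limited CXCL5 and CXCL9, with at most 3 and 102 counts in a library, and CXCL3 and CXCL11 without LPS.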
